A study of Mus musculus with 3 samples.

Results

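The genes described here are 8 genes of MHC class II antigen presentation, measured in cardiac myofibroblasts in 3 culture states: H2-Aa, H2-Ab1 and H2-Eb1 (chains of the class II molecules), H2-DMa and H2-DMb1 (chains of the peptide-loading chaperone H2-M), Cd74 (the invariant chain), Ciita (the class II transactivator) and Cd86 (a co-stimulatory ligand). They were chosen by name, and the array probes were assigned to them through the RefSeq transcript that each probe was designed for. All 8 were measured, among 15394 genes in all, where a measured gene had a probe that the scanner software called well above background on 1 array or more. H2-Ab1 had 2 such probes and the other members had 1 each.

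Expression was measured on 1-colour Agilent SurePrint G3 mouse arrays, with 1 array per state, in cells of C57BL/6J male mice given as 8 weeks old in the age field and 10 weeks old in the treatment text. In all groups the left anterior descending coronary artery had been tied off for good 3 days before the hearts were taken and digested with collagenase type II and elastase, and the cells that attached to plastic overnight were depleted of cells carrying CD45, the leukocyte surface protein encoded by Ptprc, with magnetic columns. The adherent group was grown on plastic plates, the non-adherent group was moved from plates into suspension, and the re-adherent group was put back on plates after suspension, and the comparison asked how expression differed with attachment. The study that made the arrays reports that most cells were lost in suspension, which it puts down to anoikis, cell death after detachment. The re-adherent culture was grown from the cells left. Loss of some cells and change in the others thus cannot be told apart. Each RNA sample was a mixture from several hearts and the states followed one another in culture, so state and total time in culture cannot be told apart. With 1 array per group there is no replicate error and no p-value is given.

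MHC class II molecules are pairs of an α and a β chain that show peptides from ingested proteins to CD4+ T cells. They are made mainly by dendritic cells, macrophages and B cells, and can be induced on other cells, endothelium and fibroblasts among them, by interferon gamma. The invariant chain holds the new molecule and guides it to the endosome, H2-M then helps to exchange the remaining fragment of the invariant chain for an antigen peptide, and CIITA is the coactivator that switches the class II chain, H2-M and invariant chain genes on together through the X and Y boxes of their promoters.

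RefSeq promoter windows (GRCm38.p6, 250 bases before to 50 bases after each transcript start) are described for 4 of the 8 members. These are H2-Aa, H2-Eb1, H2-DMb1 and H2-DMa, and no window is described for H2-Ab1, Cd74, Ciita or Cd86. The windows of 3 chain genes are shown because the class II genes share these promoter boxes and yet moved by different amounts between the arrays. They lie at chr17:34287774-34288073 on the minus strand for H2-Aa, chr17:34305617-34305916 on the plus strand for H2-Eb1 and chr17:34152941-34153240 on the plus strand for H2-DMb1. Each is written 5′ to 3′ on the strand of the gene, and capitals mark matches to the Y box letters GATTGG or its complement and to X box letters.
H2-Aa: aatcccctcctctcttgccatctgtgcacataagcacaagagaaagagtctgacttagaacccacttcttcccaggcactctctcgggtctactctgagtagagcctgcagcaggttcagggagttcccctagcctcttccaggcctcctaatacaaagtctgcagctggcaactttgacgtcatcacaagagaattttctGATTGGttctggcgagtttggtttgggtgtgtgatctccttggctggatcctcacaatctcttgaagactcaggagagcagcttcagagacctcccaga
H2-Eb1: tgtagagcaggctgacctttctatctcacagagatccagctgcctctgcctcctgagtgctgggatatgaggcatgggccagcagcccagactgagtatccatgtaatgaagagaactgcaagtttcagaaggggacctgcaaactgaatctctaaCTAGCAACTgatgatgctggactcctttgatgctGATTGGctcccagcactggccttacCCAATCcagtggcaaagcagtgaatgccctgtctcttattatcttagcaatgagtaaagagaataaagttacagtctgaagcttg
H2-DMb1: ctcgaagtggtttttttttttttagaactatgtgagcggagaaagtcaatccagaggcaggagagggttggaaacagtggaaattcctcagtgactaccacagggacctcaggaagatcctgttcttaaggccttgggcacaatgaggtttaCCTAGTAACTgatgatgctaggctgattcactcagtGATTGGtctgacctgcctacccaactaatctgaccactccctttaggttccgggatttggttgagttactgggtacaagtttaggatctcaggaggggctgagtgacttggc

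GATTGG stood 49 bases before the transcript start in H2-Aa, 60 bases before it in H2-Eb1 and 62 bases before it in H2-DMb1, and H2-Eb1 held a further match on the other strand. The letters CTAGNAACT were found upstream of GATTGG, with 25 bases between them in H2-Eb1 and 26 in H2-DMb1. No exact match was found in the H2-Aa window. That window held ctggcaact upstream of GATTGG, with g where the searched letters have A, so the search does not show that an X box is absent there. H2-DMa had 2 windows, of which the one at chr17:34125268-34125567 held GATTGG 199 bases before its start and the one at chr17:34122582-34122881 held neither motif. Over all 32851 promoter windows of the same length, GATTGG was on either strand in 16.1% and CTAGNAACT in 1.08%. Both were on the strand of the gene in 4 windows, or 0.0122%, and these were H2-Eb1, H2-DMb1, Pask and Gm30890. The letters CTAGNAACT were settled on after the windows of the members had been read, whereas the form written first, CCTAGNNAC, which overlaps it, matched H2-DMb1 alone among these windows and 3.91% of all. A match is a description of letters, and binding was not measured.

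The class II genes were not a single block across the states. In suspension 7 of the 8 members were higher than in adherent cells and Ciita was not, and after re-adhesion 7 of the 8 were lower than in suspension and Ciita was higher. Both steps use the same non-adherent array, so a high reading on it raises the first difference and lowers the second. Relative to the first adherent culture the re-adherent array split the members evenly: H2-Aa, H2-Ab1, H2-Eb1 and Cd74 were lower, and H2-DMa, H2-DMb1, Cd86 and Ciita were higher. Signals are given as Agilent processed intensity, and a log2 difference is between levels scaled to the 75th percentile of each array, with the technical error that the scanner software assigned to the spots. Where 3 signals or 3 differences stand together, signals are in the order adherent, non-adherent, re-adherent, and differences are non-adherent against adherent (into suspension), re-adherent against non-adherent (on re-adhesion) and re-adherent against adherent. Levels of different genes come from different probes and are not compared with one another. Over all genes the median log2 difference was -0.07 into suspension, 0.08 on re-adhesion and 0.06 between re-adherent and adherent cells. The share of all genes higher or lower in each pair was not computed. The even split in the last pair is therefore not read as a trait of the members.

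**Figure D1:**
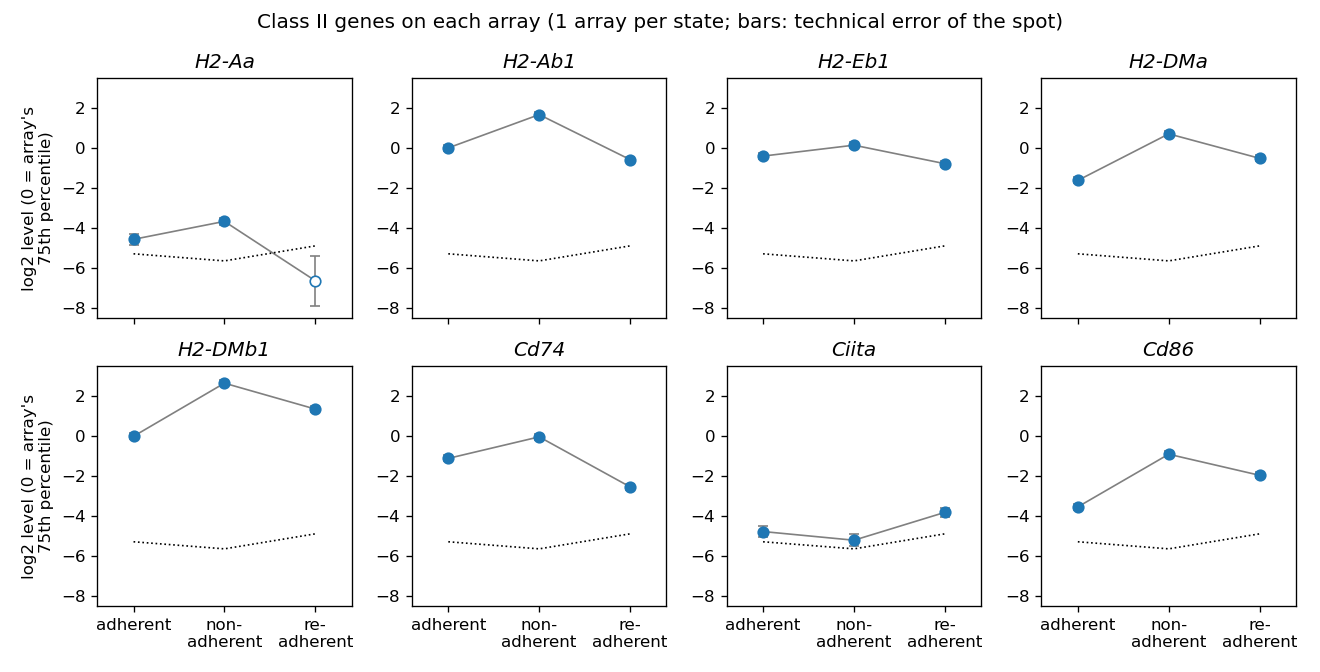
Log2 level of each member on the 3 arrays (y axis, 0 is the array's 75th percentile), with 1 panel per gene, bars for the technical error of the spot, a hollow point where the probe was not well above background and a dotted line at the lowest signal well above background on each array. The panels of the 7 members other than Ciita peak at the non-adherent array, and the Ciita panel has its lowest point there, close to the dotted line.

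Among the genes of the class II molecule itself, H2-Ab1, the β chain of I-A, had a signal of 661 in adherent, 2243 in non-adherent and 366 in re-adherent cells. It was highest in suspension and lowest after re-adhesion. The log2 difference was 1.67 ± 0.20 into suspension, -2.25 ± 0.20 on re-adhesion and -0.59 ± 0.20 between the re-adherent and adherent arrays. The second H2-Ab1 probe read 510, 1659 and 302, with log2 differences of 1.60, -2.09 and -0.49, so both probes gave the same order and nearly the same size of step.

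H2-Eb1, the β chain of I-E, had signals of 497, 777 and 318. The order of the arrays was that of H2-Ab1, with smaller steps into suspension and on re-adhesion, and the log2 differences were 0.55 ± 0.20, -0.93 ± 0.21 and -0.38 ± 0.21. The C57BL/6 strain carries a defective H2-Ea gene and makes no I-E at the cell surface, and H2-Ea had no matched probe here.

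H2-Aa, the α chain of I-A and the partner of H2-Ab1, was dim on every array, with signals of 27.7, 55.2 and 5.47. Its adherent signal was 1.65 times, and its non-adherent signal 3.94 times, the lowest signal called well above background on that array, whereas the re-adherent signal was not called well above background. The log2 difference into suspension was 0.90 ± 0.31. The re-adherent level has only a bound, by which the non-adherent level was at least 2.34-fold and the adherent level at least 1.25-fold higher, against measured folds of 7.84 and 4.21.

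Cd74, whose product chaperones the new α and β chains, had signals of 302, 683 and 93.6. The re-adherent array was lowest here too. The log2 difference was 1.08 ± 0.20 into suspension and -2.50 ± 0.21 on re-adhesion, which left the gene -1.42 ± 0.21 from its adherent level, 2.68-fold lower.

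For the chains of the peptide-loading chaperone the re-adherent array lay above the adherent one. H2-DMb1, its β chain, had signals of 651, 4398 and 1391, and its α chain H2-DMa had signals of 214, 1151 and 382. Both chains were highest in suspension, and on the re-adherent array both were between their other values. The log2 differences of H2-DMb1 were 2.66 ± 0.20, -1.30 ± 0.20 and 1.36 ± 0.20, and those of H2-DMa were 2.33 ± 0.21, -1.23 ± 0.20 and 1.10 ± 0.21. After re-adhesion H2-DMb1 was thus 2.57-fold and H2-DMa 2.15-fold above the first adherent culture, while Cd74 and H2-Ab1 were below it.

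Cd86, the ligand of CD28 and CTLA-4 that gives T cells their second signal, had signals of 56.2, 374 and 140. The order of the arrays was that of the H2-M chains. The log2 difference was 2.64 ± 0.22 into suspension, -1.05 ± 0.21 on re-adhesion and 1.58 ± 0.22 between the re-adherent and adherent arrays, or 2.99-fold higher, the highest value among the members in that comparison.

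Ciita, the coactivator, ran the other way at a level near the limit of the array. Its signals were 23.9, 18.9 and 38.6, which were 1.43, 1.35 and 2.11 times the lowest signal well above background there. The log2 difference of -0.43 ± 0.42 into suspension was about as large as its technical error, and those of 1.39 ± 0.37 on re-adhesion and 0.96 ± 0.36 between the re-adherent and adherent arrays were larger. The array that was highest for the 7 other members was thus the lowest for Ciita, by a step into suspension no larger than about its error. Its spots carried errors of 0.22 to 0.30 on the log2 scale, against 0.14 to 0.17 for the 6 members other than Ciita and H2-Aa.

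**Figure D2:**
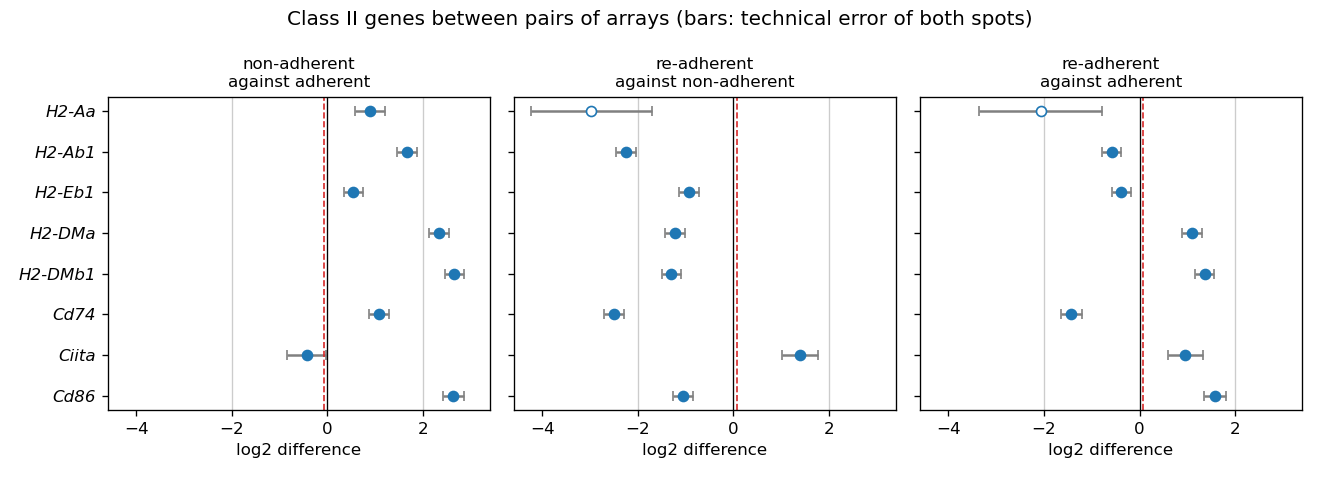
Log2 difference of each member in the 3 pairs of arrays (x axis), with bars for the technical error of both spots, hollow points where the re-adherent signal of H2-Aa has only a bound, grey lines at 4-fold, and a red dashed line at the median of all 15394 genes. In the right panel H2-Aa, H2-Ab1, H2-Eb1 and Cd74 lie left of 0 and H2-DMa, H2-DMb1, Ciita and Cd86 lie right of it.

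Set beside all measured genes, the median log2 difference of the 8 members was 1.37 in non-adherent against adherent cells, where the median of all genes was -0.07. In that pair 3 of 8 members (H2-DMa, H2-DMb1 and Cd86) were over 4-fold higher, against 7.61% of all genes, and 5 of 8 were over 2-fold higher, against 17.2%. With the normexp background correction only H2-DMb1 was past 4-fold, with H2-DMa at 1.97 and Cd86 at 1.91 on the log2 scale. Cd74 was short of 2-fold with that correction (0.96) and with scaling to spike-in probes (0.84). No member was over 4-fold or over 2-fold lower, which 5.34% and 14.7% of all genes were. With 1 array per state these are counts past a fold and not calls of a test.

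In re-adherent against non-adherent cells the median of the members was -1.26 and that of all genes 0.08. Here 3 of 8 members (H2-Aa, H2-Ab1 and Cd74) were over 4-fold lower, against 6.05% of all genes, or 2 of 8 with H2-Aa at its bound. With the normexp correction H2-Ab1 alone was past 4-fold, with Cd74 at -1.92 and H2-Aa at -0.38. Over 2-fold lower were 6 of 8, against 16.3%, and 1 of 8, Ciita, was over 2-fold higher, against 15.6%. With the normexp correction Ciita (0.67), Cd86 (-0.80) and H2-Aa (-0.38) were short of 2-fold. None was over 4-fold higher, against 5.7%. The members past 4-fold into suspension and those past 4-fold on re-adhesion were different genes at this limit. How often this holds over all genes was not computed. At 2-fold, H2-Ab1, H2-DMa, H2-DMb1, Cd74 and Cd86 passed in both steps.

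Between re-adherent and adherent cells the members had a median of 0.29, between 2 groups of values, and that of all genes was 0.06. The 3 members over 2-fold higher were H2-DMa, H2-DMb1 and Cd86, against 4.84% of all genes, and the 2 over 2-fold lower were H2-Aa and Cd74, against 4.9%, or Cd74 alone with H2-Aa at its bound. With the normexp background correction H2-DMa (0.92) and Cd74 (-0.96) were short of 2-fold in this pair. At 4-fold only the measured value of H2-Aa was past the limit on the low side, where 1.29% of all genes were, and with H2-Aa at its bound there was none. On the high side no member passed 4-fold, where 1.36% of all genes did. This comparison is the one in which the members disagreed most in direction, and the non-adherent array does not enter it.

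The other genes of the pathway were taken from lists by function. Of the listed relatives of the class II chains, H2-Ob (a chain of H2-O, the inhibitor of H2-M) was measured, with log2 differences of 0.29 ± 0.25 into suspension and -0.32 ± 0.28 on re-adhesion by its brighter probe. The dimmer H2-Ob probe, above background in suspension only, read 1.77 and -0.83. H2-Eb2, H2-DMb2 and H2-Oa were near background throughout, with no array well above it.

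Of the genes that cut antigen and invariant chain or turn class II molecules over, 7 of 11 measured were over 2-fold higher in suspension, against 17.2% of all genes, and 1 was over 2-fold lower, against 14.7%. The protease genes were among the former: Ctss (cathepsin S, which trims the invariant chain) differed by 1.83 ± 0.20 on the log2 scale, Lgmn (asparagine endopeptidase) by 2.14 ± 0.20 and Ctsl (cathepsin L) by 1.14 ± 0.20. Ifi30, the thiol reductase GILT that unfolds antigen, differed by 2.20 ± 0.20. On re-adhesion 6 of 11 were lower by over 2-fold, against 16.3% of all genes, and 2 were higher by over 2-fold, against 15.6%. Between re-adherent and adherent cells none of the 11 differed by over 2-fold, with a range from -0.34 to 0.59. For Marchf1, a ubiquitin ligase that removes class II molecules from the surface, the 2 probes went opposite ways into suspension, at -1.46 and 2.60.

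CIITA works on the class II promoters with the RFX and NF-Y factors, whose genes differed into suspension by -0.49 to 1.22 on the log2 scale. Nfya differed by 1.22 ± 0.20 into suspension, Rfxank by 0.96 ± 0.20, Rfxap by 0.82 ± 0.22, Nfyb by -0.49 ± 0.20 and Nfyc by -0.40 ± 0.20, while Rfx5 was near background on every array. Spi1 (PU.1), a factor of myeloid cells, differed by 3.11 ± 0.22 into suspension and by -1.78 ± 0.21 on re-adhesion, and Irf8, another, by 2.80 ± 0.20 and -1.88 ± 0.20. Irf4 was detected in suspension only, at least 4.21-fold above the adherent and at least 3.20-fold above the re-adherent array. In all, 4 of 10 regulators were over 2-fold higher in suspension, against 17.2% of all genes, and 4 of 10 over 2-fold lower on re-adhesion, against 16.3%.

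The 8 measured co-stimulation and adhesion genes besides Cd86 were each over 2-fold higher in suspension by their measured values, against 17.2% of all genes. Their median log2 difference was 2.12. Of these Pdcd1lg2 (PD-L2) was near background and has only a bound there, at least 1.06-fold. Cd83, a surface protein that steadies class II and CD86 on the cell, had the highest value, with signals of 178, 3831 and 373 and log2 differences of 4.33 ± 0.21 and -3.00 ± 0.20. Cd40, the receptor through which T cells license antigen-presenting cells, differed by 1.64 ± 0.21 and -0.68 ± 0.20, and Cd274 (PD-L1) by 2.39 ± 0.21 and -2.80 ± 0.21. Cd80, the other ligand of CD28, differed by 1.06 ± 0.20 and -1.08 ± 0.20 by its brighter probe and by 0.02 and 0.07 by the dimmer one. Against the first adherent culture, Cd83 (1.33 ± 0.21) and Icosl (1.29 ± 0.21) were over 2-fold higher after re-adhesion, as Cd86 was.

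MHC class I genes, whose products show peptides from inside the cell, were mostly also higher in suspension. Of 17 measured 13 were over 2-fold higher, against 17.2% of all genes, and the median log2 difference of the 17 was 1.23. H2-K1 differed by 1.96 ± 0.06 into suspension and H2-D1 by 2.12 ± 0.20, and Nlrc5, the class I counterpart of Ciita, by 2.83 ± 0.21 and by -2.82 ± 0.21 on re-adhesion. The dimmer Nlrc5 probe read 0.86 and -1.36. On re-adhesion the coactivator genes Ciita and Nlrc5 thus had differences of opposite sign. Ciita was near the lowest signal well above background on every array, and its difference was 0.67 with the normexp correction. Between re-adherent and adherent cells 15 of 17 class I genes were higher, with a median of 0.28 and a range from -0.09 (Pdia3) to 0.99 (Psmb9), and none was over 2-fold apart. The median of all genes was 0.06 in that pair and -0.37 with scaling to spike-in probes. The class I list was not computed under that scaling. Spike-in scaling shifts all genes of a pair by 1 amount, which was larger here than the class I median of 0.28. The sign of that median, and the count of 15 of 17, thus depend on the scaling used. H2-K1 differed by 0.01 and H2-D1 by 0.08 in that pair.

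Genes of interferon gamma signalling had a median log2 difference of 0.88 into suspension, and 2 of 10 measured were over 2-fold higher, against 17.2% of all genes. Ifng itself and Cxcl9, a chemokine induced by it, did not reach well above background in any state. Irf1, which acts on the promoter of Ciita that interferon gamma uses, differed by 0.85 ± 0.20 into suspension and -1.18 ± 0.20 on re-adhesion, and Cxcl10 by 3.44 ± 0.23 and -2.17 ± 0.21. Gbp2, another induced gene, differed by -0.17 ± 0.20 into suspension, by -1.16 ± 0.20 on re-adhesion and by -1.33 ± 0.20 between the re-adherent and adherent arrays.

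**Figure D3:**
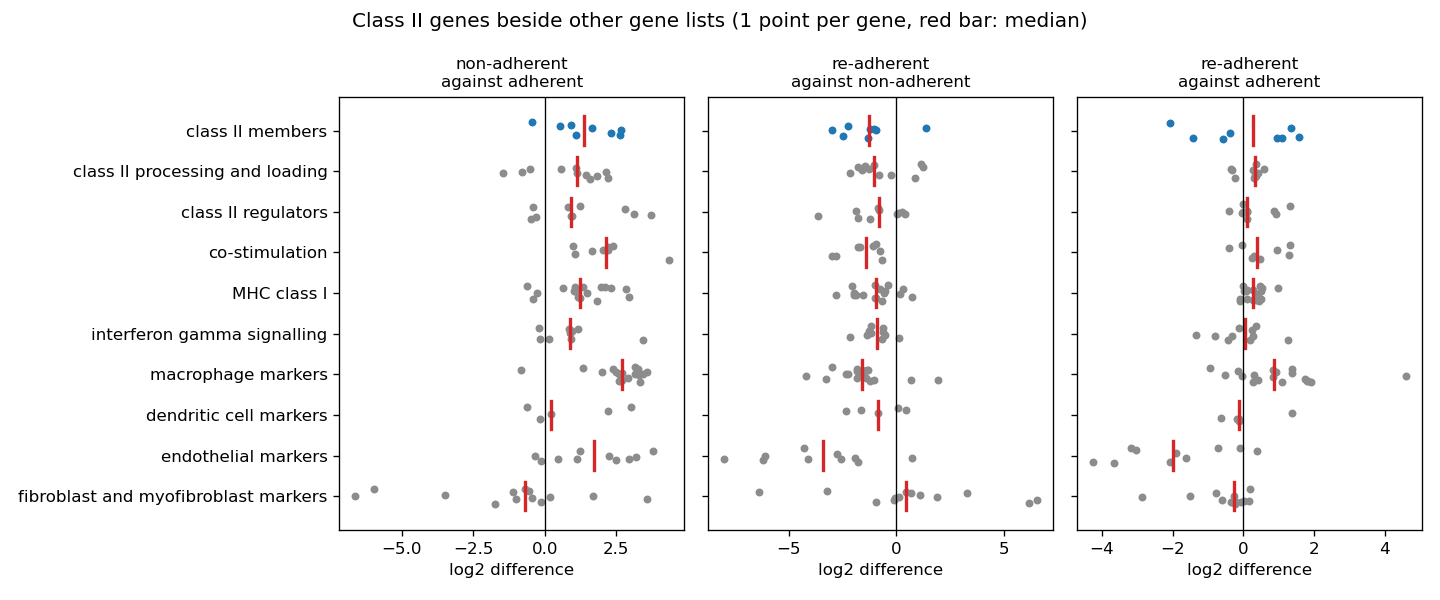
Log2 differences of the measured genes of each list in the 3 pairs of arrays (x axes, on different ranges), with 1 point per gene, the class II members in blue, and a red bar at the median of each list. Macrophage markers have the rightmost median in the left panel (2.69), and endothelial markers the leftmost in the middle and right panels (-3.43 and -1.99).

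Markers of other cell types also differed between the arrays. Of 21 macrophage markers 18 were measured, and 17 of these were over 2-fold higher in suspension, against 17.2% of all genes. The 18 had a median log2 difference of 2.69 and a summed level of 259, 1647 and 542 times the 75th percentile. Ptprc, the gene of the surface protein used for the depletion, was well above background on all arrays, with signals of 355, 2441 and 532, and Cd163 and Timd4 were not on any. The macrophage markers had a median log2 difference of -1.60 on re-adhesion and of 0.88 between re-adherent and adherent cells, where H2-DMa, H2-DMb1 and Cd86 were higher and the class II chains and Cd74 lower. The markers did not all move together. On re-adhesion 16 of the 18 were over 2-fold lower, against 16.3% of all genes, and 1 was over 2-fold higher, against 15.6%. Between re-adherent and adherent cells 14 markers were higher and 4 lower. Itgam was the exception in suspension by its brightest probe (-0.84), while its 2 other probes read 1.63 and 1.96. In bulk RNA fewer cells of a type and less RNA per cell cannot be told apart, and the part of these cells in the class II values was not tested.

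Endothelial markers, 10 of 10 measured, had a median log2 difference of 1.73 into suspension, -3.43 on re-adhesion and -1.99 between re-adherent and adherent cells, and their summed level was 23.8, 38.9 and 22.3 times the 75th percentile. Much of this sum was 1 Kdr probe, with log2 differences of -0.35 into suspension and 0.74 on re-adhesion where the other Kdr probe read 1.96 and -3.18, and without Kdr the sum was 9.29, 27.5 and 3.22. Cdh5 (VE-cadherin) had signals of 289, 2381 and 26.6, and Cldn5, Tie1 and Emcn were not well above background after re-adhesion. These 4 endothelial genes, like the class II chains and Cd74, were lowest after re-adhesion. The share of all genes that were lowest there was not computed. The part of endothelial cells in the class II values was not tested.

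Dendritic and B cell markers were mostly dim. Flt3, Xcr1, Clec9a and Cd209a were well above background in no state, and 5 of 10 dendritic cell markers were measured, with a summed level of 162, 155 and 152 that was carried by 1 of 2 Siglech probes. Without Siglech the sum was 1.75, 12.0 and 3.84. Itgax, shared with macrophages, differed by 3.02 ± 0.20 into suspension, Batf3 by 2.22 ± 0.21 and Zbtb46 by -0.61 ± 0.23, and on re-adhesion Batf3 differed by -2.34 ± 0.21. Of the B cell markers, Ms4a1, Cd79a, Pax5 and Blk were well above background in no state, and the summed level of Cd22 and Cd79b was 0.68, 1.46 and 0.51. T cell markers measured were 2 of 6, with a summed level of 5.84, 6.24 and 6.51, and Cd3d, Cd3g and Cd8a were in no state well above background.

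Markers of the labelled cell type were present on every array. All 13 fibroblast and myofibroblast markers were well above background on the 3 arrays, with a median log2 difference of -0.70 into suspension and a summed level of 2367, 922 and 2144 times the 75th percentile. Acta2, the smooth muscle actin of contractile myofibroblasts, differed by -6.64 ± 0.06 into suspension and by 6.57 ± 0.06 on re-adhesion. Lum (lumican) and Dcn (decorin), matrix proteoglycan genes of the same list, went the other way, with log2 differences of 3.56 ± 0.20, -6.41 ± 0.20 and -2.85 ± 0.20 for Lum and of 1.69 ± 0.20, -3.20 ± 0.20 and -1.51 ± 0.20 for Dcn. The class II chains and Cd74 had the order of Lum and Dcn over the arrays, highest in suspension and lowest after re-adhesion. This order was not particular to these genes, since Ctss, Cd274 and Batf3 from other lists had it too. How many of all genes had it was not computed.

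Over the whole series, 53.9% to 59.9% of the 59305 non-control spots were well above background, none was saturated, and the 75th percentile was 651, 697 and 541. All 3 arrays lay on 1 slide with 1 scan time per the file headers, so these were the same for every group. The median of the spots around each member on the array, within 4 rows and columns, differed by -0.33 to -0.06 into suspension, where the median of all spots was -0.31, and by 0.22 to 0.42 on re-adhesion, where that of all spots was 0.35.

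The genes whose pattern over the 3 arrays was most like that of the members were found by distance to the median centred profile of the 7 members well above background on all arrays, which had log2 differences of 1.55, -1.23 and 0.32. The 10 nearest of 13472 genes were Ctsb, Ift122, Sirpb1b, Rnf167, Tmem144, Zbtb42, Lpin2, Mast3, Ezh1 and Tyk2, at distances of 0.0148 (Ctsb) to 0.048 (Tyk2) log2 units. Ctsb, the gene of the lysosomal protease cathepsin B, had log2 differences of 1.57, -1.25 and 0.32. Such likeness was common over 3 arrays: 8.31% of the genes lay within 0.5 log2 units of the profile, and 1702 genes lay nearer to it than H2-DMa, the closest member, at 0.638.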

How the data were processed

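The authors deposited the scanner output of 3 one-colour arrays, 1 per state, read with Agilent Feature Extraction 10.10.1.1 per the file headers, as background-subtracted processed signal intensity on a linear scale. The series matrix that the authors deposited held the same intensity times 1 constant per array (1.52, 1.52 and 1.62). Its normalization is not given in the sources used here.

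Spots flagged as outliers (154 to 180 non-control spots per array) were left out. The log2 processed signal was reduced by the 75th percentile of each array over non-control spots, and spots of 1 probe were averaged. Transcript names were matched to RefSeq (GRCm38.p6) without versions, which named 27235 of 55681 probes and left 28446 unnamed. No coordinates are given for the genes, since the array was designed on an earlier assembly. A gene was represented by its brightest probe on average among those well above background on at least 1 array. A difference carries the error of the software for both spots, which covers technical error only. A bound sets the brighter level against whichever is higher on the dim array, the level of the probe itself or the lowest level well above background. The number of arrays limits the precision. The code was tested on simulated data.

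The members and gene lists were chosen with earlier results of these data known. Named genes were all members, list genes, and the 10 genes nearest to the profile of the members. A listed marker gene is not reported here. Alternatives were another scaling (array median, none, quantile, spike-in probes), normexp correction with an offset of 50 in limma 3.58.1 (R 4.3.3) on the median signal, as no mean signal column was given, the matrix of the authors, a floor for dim signals, the mean over probes, detection on all 3 arrays, and folds of 2 and 8. Other steps used Python 3.11.15 with pandas 2.3.3 and numpy 2.4.6.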

Additional observations from a re-analysis of the deposited data

How the results depend on the processing

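All 24 differences of members kept their sign under each of the 9 other settings of scaling, background, dim signals and probes in which they were measured, with no H2-Aa value where detection on all 3 arrays was asked. At a 2-fold limit the members past it numbered 5 (higher, non-adherent against adherent), 6 (lower) and 1 (higher, re-adherent against non-adherent), and 3 (higher) and 2 (lower, re-adherent against adherent). At 8-fold the counts above 0 at 4-fold became 0 in each pair. Of the members over 4-fold lower in re-adherent against adherent cells, 0 were left with median scaling, normexp correction, dim signals raised to a floor and detection on all 3 arrays, since H2-Aa, dim there, was the only one. Normexp also gave 1 over 4-fold higher in suspension and 1 over 4-fold lower on re-adhesion, with a median of -0.93 on re-adhesion. The median of the members on re-adhesion was -1.63 with no scaling and -1.54 in the matrix of the authors. Their median in re-adherent against adherent cells, which lies between members of opposite sign, was 0.024 with no scaling, 0.96 with detection on all 3 arrays, where H2-Aa drops out, and turned to -0.15 with spike-in scaling. Their median into suspension was 1.14 with spike-in scaling and 1.67 with detection on all 3 arrays. Spike-in scaling moved the median of all genes to -0.31, -0.12 and -0.37 in the 3 pairs, and no scaling to 0.03, -0.28 and -0.20. The spike-in form, a mean over 6 of 10 probes, was settled on after an earlier form, a median over pooled spots, had been seen to fall between probes. Of the single-gene values under these settings 169 moved by less than their technical error and 44 by more. No paired analysis was possible because only 1 array stood for each state, and for that reason no array could be left out. H2-Aa and Ciita lie near the lowest signal well above background, which limits their differences.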

Other observations

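The class II region of chromosome 17, from H2-DMa to H2-Eb1 in the RefSeq annotation, holds 12 genes, of which 5 measured ones are not members: Psmb9, Psmb8, Tap1, Tap2 and H2-Ob. Psmb8 and Psmb9 encode subunits of the immunoproteasome, and Tap1 and Tap2 the transporter that feeds class I molecules with peptides. In the order adherent, non-adherent, re-adherent, Psmb9 had signals of 495, 4124 and 820, with log2 differences of 2.96 ± 0.20, -1.97 ± 0.20 and 0.99 ± 0.20. Psmb8 differed by 2.33 ± 0.20, -1.88 ± 0.20 and 0.45 ± 0.20 in the same pairs, Tap1 by 1.47 ± 0.07, -0.97 ± 0.07 and 0.50 ± 0.07 and Tap2 by 1.18 ± 0.20, -0.75 ± 0.20 and 0.43 ± 0.20. Of the 5 neighbours 4 were thus over 2-fold higher in suspension, against 17.2% of all genes, and none was lower. Between re-adherent and adherent cells the genes at the H2-DMa end of the region, Psmb9, Tap1, Psmb8 and Tap2 among them, were higher, and H2-Ab1, H2-Aa and H2-Eb1 at the other end were lower, with H2-Ob between them at -0.03 ± 0.29. H2-Aa has only a bound on the re-adherent array. With spike-in scaling H2-DMa moved from 1.10 to 0.67 in this pair, and the neighbours were not computed under other scalings. That scaling shifts all genes of a pair alike. A shift of this size would leave Tap1, Psmb8 and Tap2 with almost no difference, so their place in this order depends on the scaling. Cd86, which was higher, and Cd74, which was lower, lie outside the region. This order along the chromosome was seen in these 3 arrays only and has no replicate, and an effect of position was not tested.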
